A study of Sus scrofa with 9 samples.

Results

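The NR4A receptors and the immediate early genes were described here in longissimus dorsi muscle of Bama minipigs, for NR4A1, NR4A3, FOS, JUN, EGR1, ATF3 and MYC. A probe belonged to a gene when its RefSeq accession, without the version, led to that symbol in a pig RefSeq gene table. This gave 9 of the 43581 usable probes, for 4 of the 7 genes: 4 probes of NR4A3, 3 of MYC, 1 of FOS and 1 of JUN. NR4A1, EGR1 and ATF3 had no probe by this rule and were not analysed here. The extraction software called all 9 probes well above background on all 9 arrays, so none was lost to the filter on dim probes.

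The arrays came from 6 animals on a high-fat high-sucrose diet (HFHSD) and 3 on a control diet (CD), 1 single-colour Agilent porcine array per animal. HFHSD was 53% basal feed, 37% sucrose and 10% lard, and CD was ordinary pig chow, both given for 23 months to minipigs that entered the study at an age of 6 months. All animals were gonadally intact, were fed restricted meals in individual pens and were fasted overnight before dissection, per the labels. Both sexes were used and the sex of each animal is not in the labels, and the labels disagree on whether CD had 3 or 6 animals, of which 3 were measured.

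Immediate early genes are transcribed within minutes of a stimulus without new protein synthesis, and most of their products are transcription factors with short-lived transcripts. FOS and JUN pair to form the factor AP-1, EGR1 is a zinc finger factor, ATF3 is a stress-induced repressor of the same leucine zipper class as FOS and JUN, and MYC drives genes of growth and ribosome production. NR4A1, NR4A2 and NR4A3 (also called NUR77, NURR1 and NOR-1) are orphan nuclear receptors that act without a known natural ligand and are controlled mainly through their own transcription. In mouse skeletal muscle, exercise and beta-adrenergic stimulation raise Nr4a1 and Nr4a3 transcripts, and both receptors are known there for control of glucose and fat use.

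The 9 arrays lay on 3 slides. Slide 1 held HFHSD 5 and HFHSD 6 only and was scanned on another day, CD 1 shared slide 2 with HFHSD 1, HFHSD 3 and HFHSD 4, and on slide 3 CD 2 and CD 3 lay beside HFHSD 2. Between 51.2% and 68.9% of the probes were well above background on the HFHSD arrays. On CD 2 and CD 3 it was 63.4% and 58.1%, but on CD 1, which stood apart, 36.8%. Levels are log2 processed signals relative to the 75th percentile of the same array, which is therefore 0. Levels of different probes do not give the relative amounts of their transcripts, since a probe's brightness also depends on its sequence. Where probes are summed or set in a ratio, the same sum or ratio is compared between arrays only. Of the 12 skeletal muscle fibre markers, 10 had a probe, and all 10, among them ACTA1, CKM and DES, were well above background on all 9 arrays.

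NR4A3 had the widest separation between the diets of the 4 genes. By its brightest probe (A_72_P302674) its processed intensity was 307, 199, 406, 1182, 243 and 455 on HFHSD 1 to 6, against 1513, 2294 and 5792 on CD 1 to 3. On the scaled log2 level these were 0.83, -0.04, 1.28, 2.79, 0.03 and 0.62 on the HFHSD arrays, against 3.50, 3.36 and 4.82 on the CD arrays. Every HFHSD array was below every CD array, with a gap of 0.57 between HFHSD 4, the highest of its group, and CD 2. HFHSD 4 stood well above the other HFHSD arrays and CD 3 above the other CD arrays.

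The mean level of NR4A3 was 0.92 ± 1.04 in HFHSD (SD, n = 6) and 3.89 ± 0.81 in CD (SD, n = 3). The difference, HFHSD minus CD, was -2.97 in log2 (SE 0.60, 95% interval -4.32 to -1.62), an HFHSD level 0.127 times that of CD. The difference did not pass limma's test, with an adjusted p of 0.0501 at a threshold of 0.05, Benjamini-Hochberg over all probes. It was the second lowest difference among 2613 named genes, after that of the ubiquitin ligase gene MUL1. Of these genes, 0.23% had a difference of -2.5 or lower. Ranked by limma's p instead of by size, NR4A3 was at place 27 among them. An exact two-sided permutation test of this one difference over all 84 splits of the arrays gave p = 0.0119, the smallest that it can give. That p is not adjusted for the number of probes, and the diets did not overlap for 10.9% of all probes. Neither that p nor the ranks are separate support, since the members were chosen with earlier results of these data known. In whole muscle, fewer cells that express NR4A3 and less NR4A3 RNA per cell cannot be told apart.

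**Figure D1:**
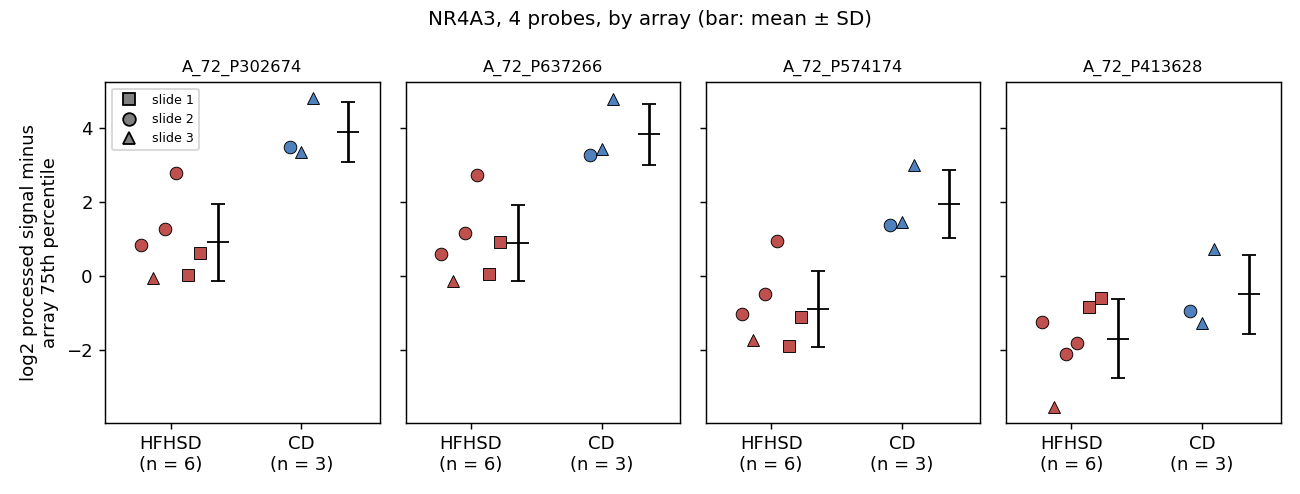
NR4A3 on the 9 arrays by its 4 probes; the y axis is the log2 processed signal relative to the 75th percentile of its array, each point is 1 animal, marker shapes give the slide and bars are mean ± SD. In the first 3 panels all 6 HFHSD arrays lie below all 3 CD arrays, and in the fourth the diets overlap.

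The other 3 NR4A3 probes fell into a pair that followed the brightest one and a single probe that did not. A_72_P637266 differed by -2.94 (SE 0.60, adjusted p = 0.0507, limma) and A_72_P574174 by -2.83 (SE 0.61, adjusted p = 0.0589, limma), again with no overlap of the diets. Across the 9 arrays these 3 probes correlated with each other at a Pearson r between 0.9955 and 0.9979, and within the 6 HFHSD arrays between 0.984 and 0.997. Such agreement is a description of 3 probes read from the same labelled RNA on the same arrays.

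The dimmest probe, A_72_P413628, had levels of -1.25, -3.54, -2.10, -1.82, -0.83 and -0.61 on HFHSD 1 to 6, against -0.95, -1.27 and 0.72 on CD 1 to 3. CD 3 was again the highest array, but 3 of the 6 HFHSD arrays were above CD 2. Its intensity was as low as 17.6 on HFHSD 2, and its difference was -1.19 (SE 0.66, adjusted p = 0.416, limma). Its r with the brightest probe was 0.557 over the 9 arrays and 0.046 within HFHSD. The files give no probe positions, so which part of the transcript each probe reads is not known here. The mean of the 4 probes differed by -2.48 (SE 0.53, adjusted p = 0.0579, limma).

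Within slide 2, the brightest NR4A3 probe had a difference of -1.86 between the mean of HFHSD 1, HFHSD 3 and HFHSD 4 and CD 1. Within slide 3 the difference of HFHSD 2 from the mean of CD 2 and CD 3 was -4.13. Both slides that held both diets thus had the same direction, with 1 array of one diet in each. With slide as a fixed block the difference was -2.93 (adjusted p = 0.109, limma), and with slide as a random block -2.98 (adjusted p = 0.0401, limma).

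The call on NR4A3 lay at the threshold: its adjusted p was under 0.05 in 8 of 24 alternative settings and ranged from 0.0189 without HFHSD 4 to 0.234 without CD 3. The difference was negative in all 24, between -3.35 and -2.43. Without CD 1, the array with the fewest probes above background, it was -3.17 (adjusted p = 0.120, limma).

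**Figure D2:**
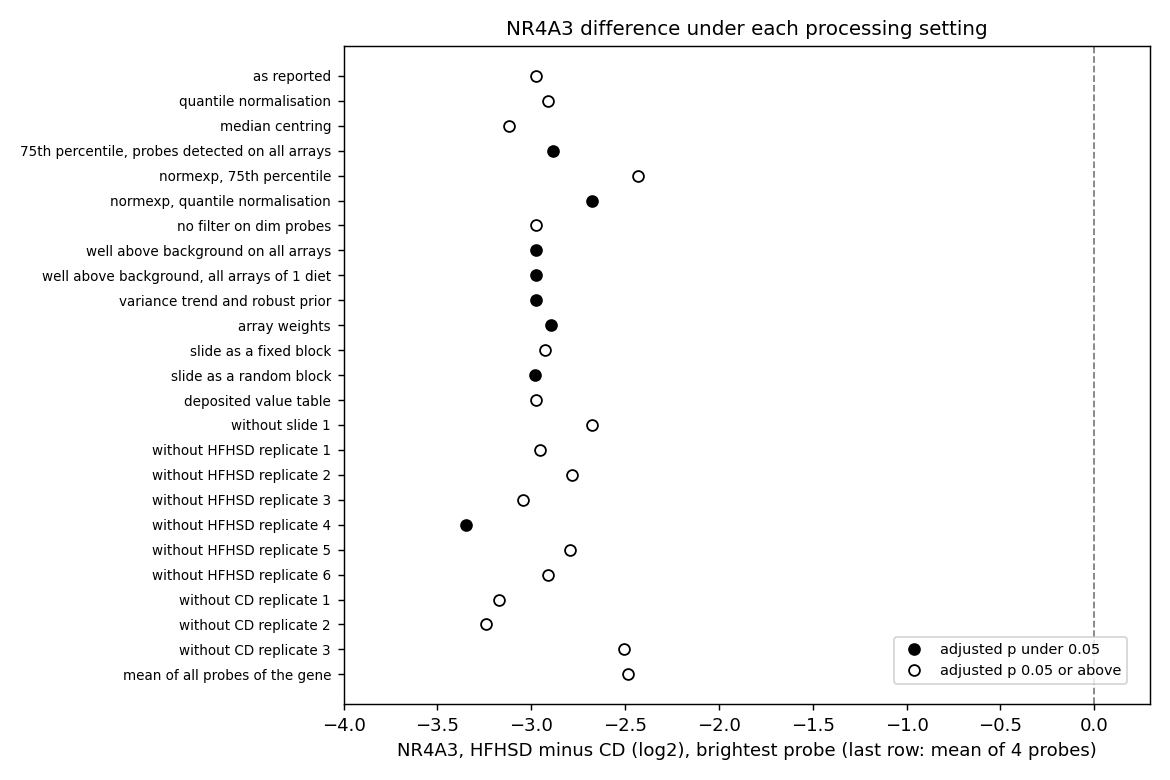
The NR4A3 difference (x axis, HFHSD minus CD in log2) as reported and under 24 alternatives, 1 per row; filled points have an adjusted p under 0.05 and open points do not. The values stay between -3.35 and -2.43 while the adjusted p crosses the threshold.

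FOS, the partner of JUN in AP-1, had a level of 0.98, -0.90, 1.69, 0.45, 0.75 and 0.82 on HFHSD 1 to 6, against 1.04, -0.71 and 1.15 on CD 1 to 3. The diets overlapped over nearly their whole range, and the low arrays, HFHSD 2 and CD 2, were 1 of each diet and shared slide 3. CD 3, on the same slide, had the highest FOS level of the CD arrays, at 1.15. The means were 0.63 ± 0.86 in HFHSD (SD, n = 6) and 0.49 ± 1.04 in CD (SD, n = 3). The difference was 0.14 (95% interval -1.12 to 1.40, adjusted p = 0.941, limma), an HFHSD level between 0.459 and 2.63 times that of CD, and its sign turned in 5 of 24 alternatives.

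JUN, the other partner in AP-1, had intensities from 29165 to 52568 on the HFHSD arrays and from 34623 to 48767 on the CD arrays, and no spot was marked as saturated. Its levels were 7.73, 7.15, 8.03, 8.11, 7.60 and 7.47 on HFHSD 1 to 6, against 8.01, 7.77 and 7.79 on CD 1 to 3. The CD arrays lay inside the range of the HFHSD arrays. The difference was -0.17 (95% interval -0.70 to 0.35, adjusted p = 0.789, limma), which corresponds to 0.616 to 1.28 times the CD level. Under normexp background correction the sign turned, to 0.38 with percentile scaling and to 0.0082 with quantile normalisation.

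MYC, the growth regulator, was read by 3 probes. The brightest, A_72_P165831, had levels of 1.34, 0.06, 0.67, 0.83, -0.45 and 0.75 on HFHSD 1 to 6, against 0.52, 1.12 and 1.12 on CD 1 to 3. HFHSD 1 was the highest array and HFHSD 5 the lowest, with the CD arrays between them. The means were 0.53 ± 0.63 in HFHSD (SD, n = 6) and 0.92 ± 0.34 in CD (SD, n = 3), a difference of -0.39 (95% interval -1.20 to 0.43, adjusted p = 0.681, limma).

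The other MYC probes differed by -0.44 (A_72_P557580, adjusted p = 0.666, limma) and by -0.81 (A_72_P592239, adjusted p = 0.368, limma), and for both the diets overlapped. The 3 probes correlated with each other at 0.796 to 0.967 over the 9 arrays. The sign of the MYC difference was not shared by the slides: it was 0.42 within slide 2 and -1.05 within slide 3 by the brightest probe.

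**Figure D3:**
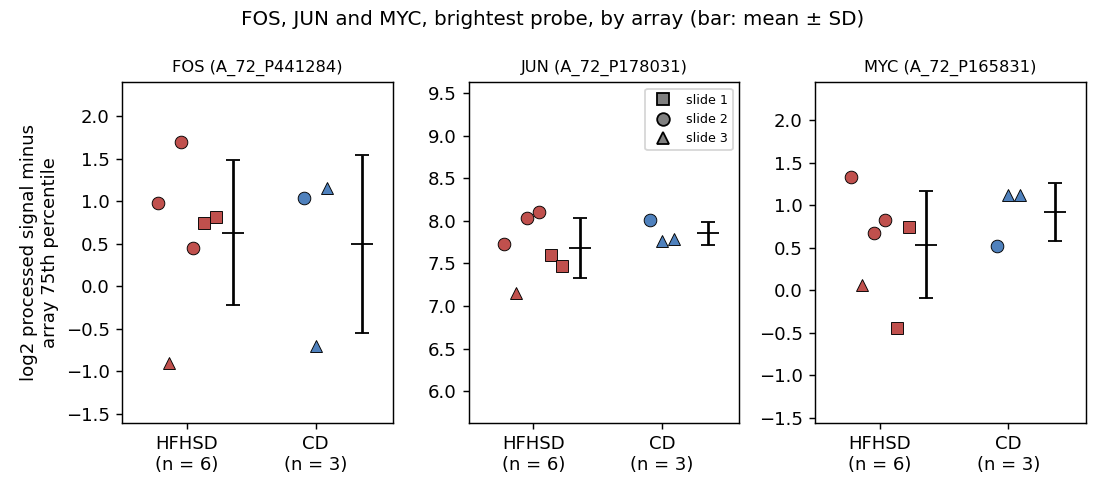
FOS, JUN and MYC on the 9 arrays by their brightest probe; the y axes are the log2 processed signal relative to the 75th percentile of its array and span the same 4 log2 units, each point is 1 animal, marker shapes give the slide and bars are mean ± SD. In all 3 panels the HFHSD and CD points overlap.

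Over the 9 member probes, 0 passed limma's test at an adjusted p of 0.05, against 1.23% of all 27925 tested probes (0.537% passed and were lower in HFHSD). At an unadjusted p of 0.05 the count was 3, against 16.5% of all probes, and at an adjusted p of 0.1 it was 3, against 4.34%. For the same 3 probes the diets did not overlap, which was the case for 10.9% of all probes (6.11% with HFHSD lower). All 3 read NR4A3, so they are repeated readings of 1 gene and not 3 separate results. The sign was negative for 8 of the 9 probes, those of NR4A3, MYC and JUN, and positive for FOS. By the brightest probe of each gene, 57.6% of all named genes had a lower level in HFHSD. As given above, the sign of JUN turned under normexp and that of MYC was not shared by the slides.

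**Figure D4:**
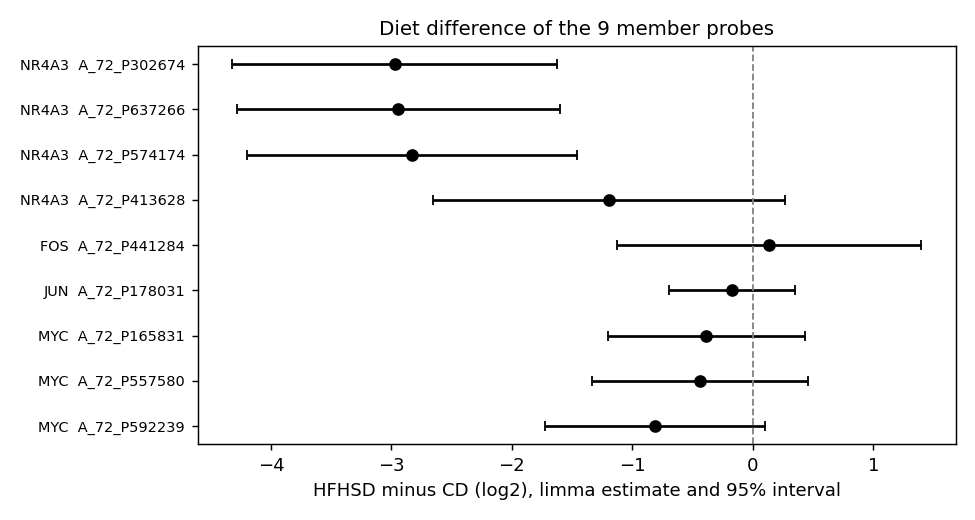
Diet difference of each of the 9 member probes (x axis, HFHSD minus CD in log2), with limma's estimate as a point and the 95% interval, not adjusted for the number of probes, as a bar. The intervals of 3 NR4A3 probes lie below 0, and the other 6 intervals, including that of the dimmest NR4A3 probe, include 0.

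NR4A3 was also set against the other genes as a ratio within each array, which does not change when an array is scaled by a constant. The 4 ratios were chosen after NR4A3 was seen to separate the diets, so they restate that separation on another scale and are given with no test. The log2 ratio of NR4A3 to FOS was 0.29 ± 1.14 in HFHSD (SD, n = 6) and 3.40 ± 0.84 in CD (SD, n = 3), a difference of -3.11. The log2 ratio to JUN was -6.76 ± 0.77 in HFHSD and -3.96 ± 0.86 in CD, a difference of -2.80, and that to MYC was 0.38 ± 0.87 in HFHSD and 2.97 ± 0.73 in CD, a difference of -2.59. For these 3 ratios every HFHSD array was below every CD array, and the differences lay between -3.58 and -2.22 when each CD array was left out in turn.

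NR4A2, the receptor of the same family that had a probe, gave levels of -0.10, -2.15, -0.37, -2.01, -0.08 and -0.91 on HFHSD 1 to 6, against -0.69, -2.11 and -1.53 on CD 1 to 3. The diets overlapped, and the difference was 0.50 (95% interval -0.71 to 1.72, adjusted p = 0.725, limma), and it was -0.23 with slide as a fixed block. The ratio of NR4A3 to NR4A2 differed by -3.48 between the diets, and the arrays of the diets overlapped for it, since HFHSD 4 at 4.79 was above the lowest CD array at 4.18.

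Other genes of the same pathways were read from lists, by the brightest probe of each gene. As a measure of all genes, 26 of the 2613 named genes passed, which is 0.995%, 57.6% had a lower level in HFHSD, 13.1% had no overlap of the diets and the median difference was -0.085. Among the 20 further members of the NR4A, AP-1, EGR, ATF and MYC families, 3 had a probe: NR4A2, ATF4 and EGR2. EGR2 was well above background on 1 array and was not tested. ATF4, the activator of the integrated stress response, differed by -0.39 (adjusted p = 0.371, limma), with all 6 of its probes lower. By the brightest probe the diets did not overlap, with HFHSD 3 at 8.93 just below CD 1 at 8.97. With normexp and percentile scaling, however, the ATF4 difference was 0.038.

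Of 42 other immediate early and early response genes, 18 had a probe and 17 were tested. Of these 9 were lower and 8 higher in HFHSD, with a median of -0.076, and 0 passed limma's test. An unadjusted p under 0.05 was found for 3 of the 17, a share near the 18.4% of all named genes. The 3 were CEBPB, a leucine zipper factor of adipocytes and macrophages (-1.03, adjusted p = 0.153), CTGF, a matrix protein induced by growth factors (-0.64, adjusted p = 0.190), and SOCS3, an inhibitor of cytokine signalling (-0.59, adjusted p = 0.296). CEBPB had no overlap of the diets. PTGS2, the inducible cyclooxygenase, differed by 0.93 (adjusted p = 0.306), but 4 of 6 HFHSD arrays and 1 of 3 CD arrays detected it, and 3 of 6 HFHSD and 2 of 3 CD arrays detected SOCS3. Under normexp with percentile scaling this list had a median of 0.17.

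Of 28 genes of the signalling that induces immediate early genes, 7 were tested, 4 lower and 3 higher in HFHSD, with a median of -0.020 (0.57 under normexp with percentile scaling). Limma's test was passed by 0 of them, and 1 of the 7 had an unadjusted p under 0.05, against 18.4% of all named genes. The stress-activated kinase gene MAPK14 differed by -0.33 and the calcium-dependent kinase gene CAMK2D by 0.33 (adjusted p = 0.403 and 0.423, limma). PPP3CB, a catalytic subunit of the phosphatase calcineurin, differed by 0.29 (adjusted p = 0.469, limma).

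Likeness to NR4A3 was measured over the 1875 named genes well above background on all 9 arrays. The highest Pearson r over the 9 arrays was 0.970 for CHORDC1, a co-chaperone of HSP90, followed by 0.963 for C7H6orf47. Within the 6 HFHSD arrays the values were 0.938 for CHORDC1 and 0.855 for C7H6orf47. These values are descriptions, and those over all 9 arrays include the distance between the diets. CHORDC1 differed by -0.65 (adjusted p = 0.153, limma) and C7H6orf47 by -0.96 (adjusted p = 0.0626, limma).

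Of 21 genes of glucose and fat use that NR4A1 or NR4A3 is reported to raise in mouse or rat muscle, 15 were tested. The level in HFHSD was lower for 12 of them and higher for 3, where 57.6% of all named genes were lower, with a median difference of -0.57 against -0.085 for all named genes. None of the 15 passed limma's test, and 4 had an unadjusted p under 0.05, against 18.4% of all named genes. The 4 were UCP3, a mitochondrial carrier of muscle (-0.88, adjusted p = 0.155), PGAM2, the muscle phosphoglycerate mutase (-0.57, adjusted p = 0.177), ENO3, the muscle enolase (-0.46, adjusted p = 0.259), and PDK4, which restrains glucose oxidation (-0.79, adjusted p = 0.295). The median was -0.19 with normexp and percentile scaling and -0.45 with normexp and quantile normalisation.

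Of 10 genes of the stress response that ATF3 belongs to, 3 were tested, and all 3 had a lower level in HFHSD, as had 57.6% of all named genes: HMOX1, the inducible haem oxygenase (-0.99, adjusted p = 0.102), DDIT3, a pro-apoptotic leucine zipper factor (-0.83, adjusted p = 0.236), and ATF4 as above. HMOX1 and DDIT3 had an unadjusted p under 0.05, as had 18.4% of all named genes, and 0 genes of this list passed limma's test. GDF15 was well above background on 1 array and was not tested.

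Of 14 MYC targets, 6 were tested, 2 lower and 4 higher, with a median of 0.061, and 0 passed limma's test or had an unadjusted p under 0.05. HSPD1, a mitochondrial chaperone, differed by -0.46, CDK4, a kinase of the cell cycle, by -0.32, CCND2, its cyclin partner, by 0.17, and ODC1, which starts polyamine synthesis, by 0.20. Of 14 AP-1 targets, 9 were tested, 6 lower and 3 higher, with a median of -0.48, which was -0.16 under normexp with percentile scaling and -0.17 under normexp with quantile normalisation. Limma's test was passed by 0 of them, and 2 of the 9 had an unadjusted p under 0.05, a share near the 18.4% of all named genes. The 2 were HMOX1, which is also on the stress response list, and TIMP1, an inhibitor of matrix proteases (-0.56, adjusted p = 0.239). The protease genes MMP3 and PLAU differed by -1.01 and -0.53, of which MMP3 was well above background on 3 of 6 HFHSD and 2 of 3 CD arrays.

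The genes most like FOS over the 9 arrays were S100A12 (r = 0.917) and S100A8 (r = 0.917), calcium-binding proteins of neutrophils, and the chemokine CXCL2 (r = 0.864). Of 5 neutrophil markers 3 had a probe, and their summed level, in multiples of the array's 75th percentile, ran from 0.392 to 2.24 in HFHSD and from 0.362 to 1.53 in CD. The sum includes S100A12 and S100A8, which were picked above for their likeness to FOS. That its lowest arrays of each diet were HFHSD 2 and CD 2, as for FOS, restates that likeness. The part of neutrophils in the FOS level was not tested. Among the 3 genes most like JUN were the macrophage receptors CD163 (r = 0.902) and VSIG4 (r = 0.891). Those most like MYC were CAND1 (r = 0.900), GNPNAT1 (r = 0.892) and YWHAZ (r = 0.857).

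Markers of other cell types were read beside NR4A3. All 7 adipocyte markers had a probe and were higher in HFHSD, where 57.6% of all named genes were lower. Limma's test was passed by 1 of the 7, CIDEA, against 0.995% of all named genes. Well above background on all arrays were 4 of the 7. The summed level of the 7 ran from 111 to 369 in HFHSD and from 85.8 to 115 in CD. It follows LIPE and FABP4, the brightest of them, which did not pass (adjusted p = 0.290 and 0.737, limma). Of 5 smooth muscle markers 3 had a probe, all well above background on all arrays. All 3 were lower in HFHSD, as were 57.6% of all named genes. Limma's test was passed by 0 of them (adjusted p = 0.285 for ACTA2, 0.641 for CNN1 and 0.177 for SMTN). Their sums, from 533 to 806 in HFHSD and from 805 to 1233 in CD, follow ACTA2, by far the brightest. Of 10 macrophage markers 7 had a probe, all detected on all arrays and all lower in HFHSD, as were 57.6% of all named genes. Limma's test was passed by 0 of the 7, with adjusted p from 0.346 for CD163 to 0.972 for CD14. Their sums ran from 10.4 to 29.7 in HFHSD and from 17.9 to 30.7 in CD. Of the 9 lymphocyte markers with a probe, 3 were well above background on no array, among them CD2 and CD79A. Endothelial sums overlapped, from 22.3 to 37.8 in HFHSD and from 29.7 to 31.4 in CD, as did fibroblast sums, from 77.8 to 128 in HFHSD and from 64.6 to 133 in CD. Of 4 satellite cell markers, MYOD1 and VCAM1 had a probe and differed in opposite directions, MYOD1 by -1.93 (adjusted p = 0.0863, limma) and VCAM1 by 0.99 (adjusted p = 0.0577, limma). Their sums, from 2.73 to 4.80 in HFHSD and from 1.95 to 2.43 in CD, follow VCAM1. The part of these cell types in the NR4A3 difference was not tested.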

How the data were processed

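RNA of 9 muscles was hybridised to single-colour (Cy3) Agilent arrays, per the labels. Per the file headers, the authors extracted the deposited intensity values with Agilent Feature Extraction 10.7.3.1; its background and scaling settings are not given in the sources used here. The deposited value table held the same intensity values, with 0 spots differing on any array, so it is linear and uncentred; its array medians over the probes used ranged from 13.2 to 42.8.

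Control and outlier spots were left out, spots of a probe were averaged as log2, and 22 of 43603 probes with no usable spot on some array were dropped. The array's 75th percentile was subtracted. Probes well above background on at least 3 arrays were tested (27925). Accessions named 6891 probes of 3196 genes through the RefSeq table of Sscrofa11.1, used for names only, since the array files name no genome build; 6 of the 7 member genes had accessions in that table and NR4A1 had none. The brightest tested probe represents a gene.

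HFHSD was tested against CD by limma (version 3.58.1, R 4.3.3; lmFit and eBayes, two-sided, no covariates), tested first on simulated data, with Benjamini-Hochberg adjustment over all tested probes and a threshold of 0.05. Genes named are the members, up to 4 genes per list by smallest p, and the 3 genes most like each member; some genes that this rule names are not reported here. The members and lists were chosen with earlier results of these data known. Array numbers follow accession order and only name animals. Alternatives covered scaling, background correction (normexp, offset 50, on the median signal, since the files hold no mean signal; this was settled after seeing the files), filters, slide and left-out arrays. The number of arrays limits the precision.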

Additional observations from a re-analysis of the deposited data

Results flagged for a closer look

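Among 43 genes and probes of the text, the 6 HFHSD arrays held 1 array far from the others for 3 genes, by Dixon's test at its 95% critical value for 6 arrays, which chance passes for about 1 in 20 groups. None was a member. For HSPD1, HFHSD 1 was low at 3.21, with the next array at 3.84 (gap 0.721 of the range). For PGAM2, HFHSD 3 was high at 9.13, with the next at 8.71 (gap 0.743 of the range). For PLAU, HFHSD 5 was low at 0.74, with the next at 1.43 (gap 0.69 of the range).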

How the results depend on the processing

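No paired analysis was possible because the labels give the diets no shared replicate numbers. Of all probes 344 passed. The count was 127 with median centring, 88 with normexp and percentile scaling, 856 with normexp and quantile normalisation, 66 with no filter on dim probes, 736 with probes above background on all arrays, 887 with all arrays of at least 1 diet, 612 with a variance trend, 1205 with array weights, 84 with slide as a fixed block, 677 with a random slide block, 128 without slide 1, 1211 at an adjusted p of 0.1 and 30 at 0.01. Leaving out each array gave 21 to 359. Median centring moved the median difference of all probes to -0.17, as did normexp with percentile scaling.

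Of the 9 member probes, 0 passed. With the percentile over probes detected on all arrays and with slide as a random block 2 passed, and 3 passed with normexp and quantile normalisation, with either stricter filter, with the variance trend, with array weights and at an adjusted p of 0.1; left-out arrays gave 0 to 3. NR4A3 passed in the same settings other than the last, at -2.89 (percentile over detected probes), -2.68 (normexp and quantile), -2.97 (both filters and the trend), -2.90 (weights) and -2.98 (random block). Left-out arrays gave -3.35 to -2.51, and the slides -1.86 and -4.13. The cause was not tested.

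FOS turned to -0.011 with median centring, -0.53 with a fixed slide block and -0.20 with a random one, ranged from -0.47 to 0.46 over left-out arrays and was -1.12 within slide 3. JUN turned to 0.38 and 0.0082 with the normexp settings and was -0.62 within slide 3. MYC was 0.42 within slide 2 and -1.05 within slide 3. The cause was not tested.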

Other observations

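The arrays at the ends of the range were shared by several members. HFHSD 2 was the lowest of the 9 arrays for 5 of the 9 member probes, those of FOS, JUN and 3 of NR4A3, and HFHSD 5 was the lowest for the other 4, all 3 of MYC and 1 of NR4A3. CD 3 was the highest array for 5 probes, the 4 of NR4A3 and 1 of MYC, while no CD array was the highest for FOS or JUN. The dimmest NR4A3 probe shared CD 3 as its highest array with the other NR4A3 probes, but among the HFHSD arrays its highest was HFHSD 6 at -0.61 where theirs was HFHSD 4.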
